A study of Homo sapiens with 3 samples.

Results

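The genes described here are those of the human mitochondrial chromosome: 37 of the 61533 genes in the deposited tables, taken as the rows placed on chrM, all of which have names beginning with MT-. They are 13 protein-coding genes, 2 ribosomal RNA (rRNA) genes and 22 transfer RNA (tRNA) genes. The RNA came from Hep3B, a long-established line of human liver cancer cells labelled as wild type. Each of 3 conditions has 1 library: 1% oxygen with sodium oxamate, 1% oxygen without it (hypoxia), and 20% oxygen (normoxia). Oxamate inhibits lactate dehydrogenase, the enzyme that turns pyruvate into lactate. The series text gives 48 hours for the oxamate culture, and whether the other cultures lasted as long is not clear from it. The labels give no oxamate dose, and the RNA was selected with oligo-dT beads, which hold RNA by its poly(A) tail. As each condition is a single library, the spread between cultures is unknown, differences are given without p-values, and a ratio past a threshold describes these libraries.

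The mitochondrial chromosome encodes the membrane core of the respiratory chain. Its mRNAs specify subunits of complex I (NADH dehydrogenase), complex III (the cytochrome bc1 complex), complex IV (cytochrome c oxidase, which consumes oxygen) and complex V (ATP synthase), and its rRNAs and tRNAs serve the ribosomes that translate them. Each strand is transcribed as a long precursor that is cut mostly at the tRNAs lying between the longer genes. The heavy-strand transcript carries both rRNAs, every mRNA except MT-ND6 and most tRNAs, whereas the light-strand transcript carries MT-ND6 and the remaining tRNAs. Many of the mRNAs end without a whole stop codon, and the A residues of the poly(A) tail complete it. Human MT-ND6 mRNA is known to carry no such tail, and the rRNAs carry only short A stretches.

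The libraries held 24826365 fragments in oxamate, 26309340 in hypoxia and 27412147 in normoxia. Levels across libraries are in CPM, fragment counts scaled to depth with the trimmed mean of M values. Levels between genes are in the deposited FPKM, which also divides by gene length. The 2-fold rule used below calls a gene higher or lower if its CPM differ by a factor of 2 or more and one of the libraries holds at least 50 of its fragments. Intervals are 95% exact conditional binomial and cover counting error only, not the spread between cultures. PCR copies of one molecule could not be recognised, so the intervals may be too narrow even for counting error. All 9 hepatocyte markers examined were present in each library, led by the albumin gene ALB, and their summed level was 11633 CPM in oxamate, 20215 CPM in hypoxia and 31455 CPM in normoxia. Of these markers 5 passed the 2-fold rule as lower in hypoxia than in normoxia (8.06% of all genes did) and 1 as higher (10.8% did), the transferrin gene TF, with 5055 CPM in hypoxia and 1494 CPM in normoxia. With oxamate against hypoxia 5 passed as lower (5.07% of all genes did) and 0 as higher. Their part in the mitochondrial differences was not tested. The 5 blood cell markers were each below 1 CPM in every library. The 4 cholangiocyte markers were not low as a sum, with 991 CPM in oxamate, 833 CPM in hypoxia and 1265 CPM in normoxia. The 4 endothelial markers summed to 20.1 CPM in oxamate, 8.35 CPM in hypoxia and 1.35 CPM in normoxia, nearly all PECAM1, and the 5 fibroblast and stellate markers to 6.96 CPM in oxamate, 20.6 CPM in hypoxia and 15.1 CPM in normoxia.

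The hypoxia library held less mitochondrial mRNA than the normoxia library, but not less mitochondrial rRNA. The 13 mRNA genes together had 52199 CPM in oxamate, 39364 CPM in hypoxia and 76656 CPM in normoxia. The hypoxia total was 1.95-fold lower than in normoxia (interval 1.94 to 1.95), and the oxamate total was 1.33-fold above hypoxia (1.32 to 1.33). The 2 rRNA genes together ran the other way across oxygen, with 19024 CPM in oxamate, 15514 CPM in hypoxia and 12727 CPM in normoxia, so that hypoxia was 1.22-fold above normoxia (1.21 to 1.22). There were 36.4 rRNA fragments per 100 mRNA fragments in oxamate, 39.4 in hypoxia and 16.6 in normoxia. In bulk RNA, fewer cells with a transcript and less of it per cell cannot be told apart. Neither can be told apart from a difference in how much of each RNA the oligo-dT beads held. That holds for the mRNAs as for the rRNAs. All 37 genes took 7.21% of fragments in oxamate (Clopper-Pearson interval 7.20 to 7.22%), 5.80% in hypoxia (5.79 to 5.81%) and 8.46% in normoxia (8.45 to 8.47%).

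In hypoxia against normoxia, 6 of the 13 mRNA genes passed the rule as lower and 0 as higher, where 8.06% of all 13554 genes with enough fragments were lower and 10.8% higher. The median log2 ratio of the 13 was -0.997, against -0.11 over all those genes. The mRNAs did not move by one factor. MT-ND2 stood at the low end at log2 -1.57, and MT-ND6, the only mRNA of the light strand, at the high end at 0.19.

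**Figure D1:**
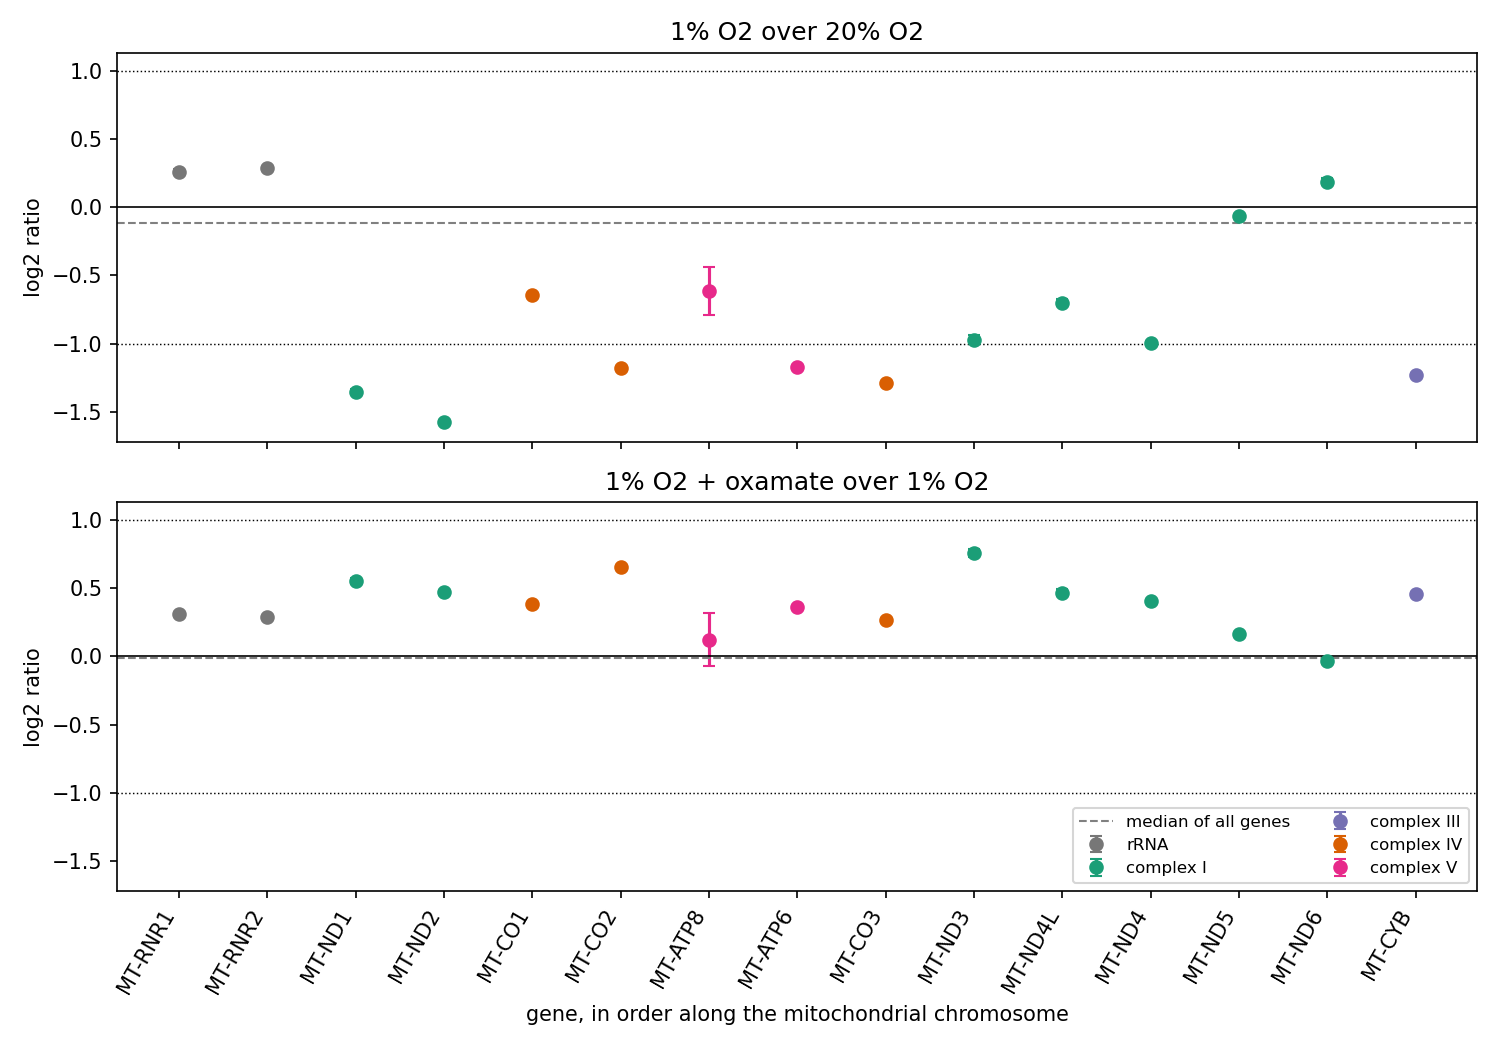
Log2 CPM ratio (vertical axis) of the 2 rRNA and 13 protein-coding genes in their order along the chromosome, for 1% over 20% oxygen (top) and 1% oxygen with oxamate over 1% oxygen (bottom). Points are coloured by complex, bars are counting intervals, the dashed line is the median of all genes and dotted lines mark 2-fold; in the top panel the rRNAs (0.26 and 0.29), MT-ND5 (-0.06) and MT-ND6 (0.19) lie near 0 while the other mRNAs lie between -0.61 and -1.57.

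Complex I takes 7 of the 13 mRNAs and had the widest spread among them in hypoxia, with log2 ratios from -1.57 to 0.19. MT-ND2 (ENSG00000198763_3), a proton-pumping membrane subunit, had 2112 CPM in oxamate, 1525 CPM in hypoxia and 4544 CPM in normoxia. It was 2.98-fold lower in hypoxia than in normoxia (2.95 to 3.01) and 1.38-fold higher with oxamate than without (1.37 to 1.40). MT-ND1, which lies near the quinone-binding site, followed the same order with 1721 CPM in oxamate, 1173 CPM in hypoxia and 2992 CPM in normoxia, and was 2.55-fold lower in hypoxia (2.52 to 2.58). These 2 genes are the first mRNAs downstream of the rRNA genes.

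MT-ND4, another proton-pumping subunit and the complex I mRNA with the most fragments, had 10596 CPM in oxamate, 8007 CPM in hypoxia and 15985 CPM in normoxia. Its hypoxia ratio lay on the threshold, at 1.996-fold lower with an interval of 1.99 to 2.01, and it passed the rule with median-of-ratios scaling (log2 -1.01) and with the deposited FPKM (-1.01). MT-ND3 was 1.96-fold lower in hypoxia (1.92 to 2.002), with 801 CPM in oxamate, 474 CPM in hypoxia and 928 CPM in normoxia, and at 1.69-fold above hypoxia with oxamate it had the highest such ratio among the mRNAs. MT-ND4L, which precedes MT-ND4 on the same mRNA, had 1147 CPM in oxamate, 830 CPM in hypoxia and 1348 CPM in normoxia, or 1.62-fold lower in hypoxia (1.60 to 1.65).

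The remaining complex I genes lie next to each other on opposite strands and did not follow this order. MT-ND5, a proton-pumping subunit, had 3531 CPM in oxamate, 3154 CPM in hypoxia and 3291 CPM in normoxia, and its hypoxia ratio of log2 -0.06 turned to 0.10 when libraries were scaled by total fragments. MT-ND6 had 915 CPM in oxamate, 936 CPM in hypoxia and 821 CPM in normoxia, which was 1.14-fold higher in hypoxia (1.12 to 1.16). Whether reads were counted by strand is not known, so these fragments cannot be told apart from heavy-strand RNA over the same bases. In FPKM, MT-ND5 stood at 1.12 times MT-ND6 in oxamate, 0.98 times in hypoxia and 1.16 times in normoxia. Relative to the sum of the 13 mRNAs, MT-ND5 made up 6.76% in oxamate, 8.01% in hypoxia and 4.29% in normoxia, and MT-ND6 made up 1.75% in oxamate, 2.38% in hypoxia and 1.07% in normoxia. On that scale MT-ND6 was the one mRNA more than 2-fold higher in hypoxia, at log2 1.15, and MT-ND5 stood at 0.90.

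**Figure D2:**
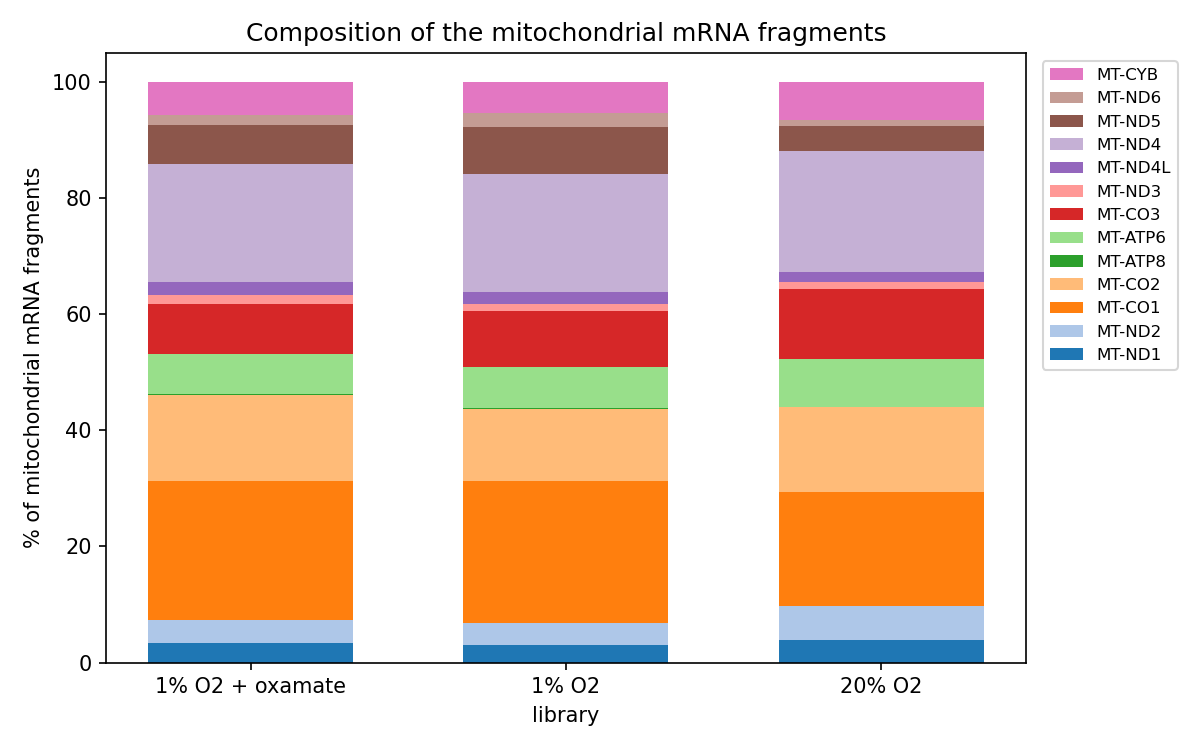
Share of each of the 13 protein-coding genes in the mitochondrial mRNA fragments of the 3 libraries (vertical axis, percent; bars stacked in chromosome order from the bottom). MT-CO1 and MT-ND4 are the largest blocks in each library, and MT-ND5 takes 6.76% in oxamate, 8.01% in hypoxia and 4.29% in normoxia.

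Complex III has a single mitochondrial gene. MT-CYB, the cytochrome b subunit that carries the quinone-binding sites, had 2926 CPM in oxamate, 2129 CPM in hypoxia and 4986 CPM in normoxia. It was 2.34-fold lower in hypoxia (2.32 to 2.37) and 1.37-fold higher with oxamate (1.36 to 1.39).

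All 3 complex IV genes had lower values in hypoxia, 2 of them past the rule, which 8.06% of all genes passed as lower. MT-CO3, a core subunit of cytochrome c oxidase, had 4550 CPM in oxamate, 3783 CPM in hypoxia and 9254 CPM in normoxia, 2.45-fold lower in hypoxia (2.43 to 2.46). MT-CO2, which receives electrons from cytochrome c, had 7743 CPM in oxamate, 4929 CPM in hypoxia and 11179 CPM in normoxia, 2.27-fold lower in hypoxia (2.25 to 2.28) and 1.57-fold higher with oxamate (1.56 to 1.58). MT-CO1, the subunit that holds the oxygen-reducing centre, differed less, with 12526 CPM in oxamate, 9590 CPM in hypoxia and 14973 CPM in normoxia, or 1.56-fold lower in hypoxia (1.55 to 1.57). As a share of the mRNA fragments MT-CO1 made up 24.0% in oxamate, 24.4% in hypoxia and 19.5% in normoxia, whereas MT-CO3 made up 8.72% in oxamate, 9.61% in hypoxia and 12.1% in normoxia.

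The 2 complex V genes share 1 mRNA and overlap by 46 bases, chrM:8527-8572 on the plus strand of hg38. MT-ATP6, which forms part of the proton channel, had 3615 CPM in oxamate, 2819 CPM in hypoxia and 6331 CPM in normoxia, 2.25-fold lower in hypoxia (2.23 to 2.27). MT-ATP8, a short accessory subunit, had only 17.8 CPM in oxamate, 16.4 CPM in hypoxia and 25.1 CPM in normoxia. Per unit of length MT-ATP6 stood 61.6-fold above MT-ATP8 in oxamate, 52.3-fold in hypoxia and 76.8-fold in normoxia, although the same RNA carries both. By contrast MT-ND4, which overlaps its partner MT-ND4L by 7 bases, stood 1.99-fold above it in oxamate, 2.08-fold in hypoxia and 2.56-fold in normoxia. The rule by which fragments over overlapping genes were assigned is not given in the sources used here, and its part in the MT-ATP8 level was not tested. The shared bases are shown because 22.2% of MT-ATP8 lies in them, with the start codon of the downstream gene and the stop codon of the upstream gene in capitals.
MT-ATP8 and MT-ATP6: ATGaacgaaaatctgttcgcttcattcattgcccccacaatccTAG
MT-ND4L and MT-ND4: ATGcTAA

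The ends of the annotated coding sequences show a feature that divided the hypoxia ratios in part. The division was made after the ratios were known and carries no test. In GENCODE 29 (hg38), 6 of the 13 coding sequences end in T or TA and need A residues from the tail to form a stop codon. They are MT-ND1, MT-ND2, MT-CO3, MT-ND3, MT-ND4 and MT-CYB. The other 7 are whole codons in length, and their last codon is taken here as a whole stop. It is AGA in MT-CO1, AGG in MT-ND6 and TAA or TAG in the others. Among these, MT-ATP6 ends at chrM:9207, which is also the first base of MT-CO3. Whether its cut RNA keeps that base was not tested, so the groups follow the annotation only. The 6 had hypoxia log2 ratios from -1.57 to -0.97 with a median of -1.26, and 4 of them passed the 2-fold rule as lower. Among all genes 8.06% did. The 7 ranged from -1.18 to 0.19 with a median of -0.64, and 2 passed, MT-CO2 and MT-ATP6. The groups overlapped in these 2 genes. Genes that share an mRNA fall on both sides of the division, MT-ND4 among the 6 and MT-ND4L among the 7. The last 30 bases of the annotated coding sequences follow, 5′ to 3′, for 4 genes with unfinished stops and 3 with whole ones. Annotated stop bases are in capitals, and where each RNA itself ends was not examined. The 4 are those past the 2-fold rule, and the 3 are whole-stop genes that were not. Chosen by ratio, they show a sharper contrast than the groups hold. Among those left out are MT-CO2 and MT-ATP6, whole-stop genes past the rule, and MT-ND3 and MT-ND4, with unfinished stops and not past it.
MT-ND1: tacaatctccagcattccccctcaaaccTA
MT-ND2: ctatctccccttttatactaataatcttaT
MT-CO3: tgtatgtctccatctattgatgagggtctT
MT-CYB: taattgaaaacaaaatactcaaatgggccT
MT-CO1: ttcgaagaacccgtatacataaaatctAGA
MT-ND5: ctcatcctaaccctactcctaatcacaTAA
MT-ND6: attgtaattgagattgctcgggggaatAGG
The first 6 come from the plus strand, at chrM:4233-4262, chrM:5482-5511, chrM:9961-9990, chrM:15858-15887, chrM:7416-7445 and chrM:14119-14148 in the order shown, and MT-ND6 from the minus strand at chrM:14149-14178.

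Position along the heavy-strand transcript gave no clear order. Across its 12 mRNAs, Spearman's rho between start position and the log2 ratio was 0.38 for hypoxia against normoxia and -0.25 for oxamate against hypoxia, as a description of genes that share the same libraries and precursor. Level in FPKM was likewise unordered along the chromosome, with rho of 0.06 in oxamate, 0.10 in hypoxia and -0.05 in normoxia.

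Of the 20 genes with the highest FPKM in each library, 15 were mitochondrial in oxamate, 14 in hypoxia and 15 in normoxia. MT-CO2 was the highest mRNA in each, with 11197 FPKM in oxamate, 7171 FPKM in hypoxia and 16434 FPKM in normoxia. Among the 15 mRNA and rRNA genes, MT-RNR2 ranked 2nd in oxamate, 1st in hypoxia and 6th in normoxia, and MT-ATP8 was last throughout. MT-ND2 had 1.04 times the FPKM of MT-ND5 in oxamate, 0.84 times in hypoxia and 2.40 times in normoxia.

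**Figure D3:**
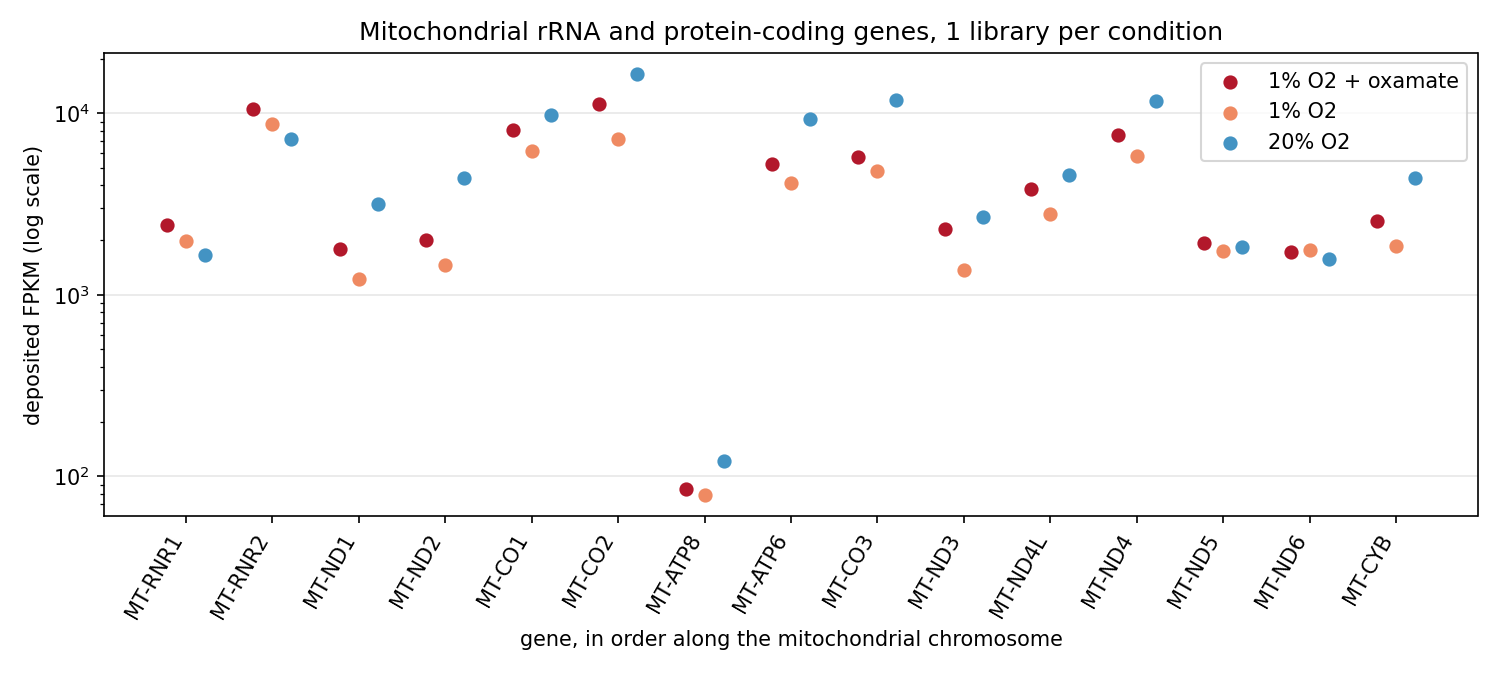
Deposited FPKM (vertical axis, log scale) of the 2 rRNA and 13 protein-coding genes in chromosome order, with 1 point for each library: 1% oxygen with oxamate, 1% oxygen and 20% oxygen from left to right. The normoxia point is the highest for 11 of the 13 mRNAs, and the lowest for both rRNAs and MT-ND6.

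The rRNAs moved as a pair. MT-RNR2, the 16S rRNA of the large ribosomal subunit (chrM:1671-3229), had 16678 CPM in oxamate, 13624 CPM in hypoxia and 11147 CPM in normoxia, or 1.22-fold higher in hypoxia (1.22 to 1.23) and 1.22-fold higher again with oxamate. MT-RNR1, the 12S rRNA of the small subunit (chrM:648-1601), had 2346 CPM in oxamate, 1890 CPM in hypoxia and 1579 CPM in normoxia, 1.20-fold higher in hypoxia (1.18 to 1.21). MT-RNR1 held 12.3% of rRNA fragments in oxamate, 12.2% in hypoxia and 12.4% in normoxia. Neither gene passed the 2-fold rule in any comparison. How much of this RNA the oligo-dT beads held in each library cannot be told apart from how much the cells contained.

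Most tRNA genes were barely counted, and those of the 2 strands differed. The 22 tRNAs span 59 to 75 bases, shorter than usual library fragments, and together held 0.0323% of fragments in oxamate, 0.0278% in hypoxia and 0.0228% in normoxia. Of these genes, 10 reached 50 fragments in some library, 12 did not (at most 41), and MT-TD and MT-TS2 had 0 in all 3 libraries, where a count of 0 allows up to 0.120 CPM in oxamate, 0.108 CPM in hypoxia and 0.116 CPM in normoxia. The 8 light-strand tRNAs held 7114 fragments in oxamate, 6644 in hypoxia and 5059 in normoxia, whereas the 14 heavy-strand tRNAs held 902 in oxamate, 683 in hypoxia and 1181 in normoxia. In hypoxia the light-strand sum was 1.23-fold higher than in normoxia (1.18 to 1.27) and the heavy-strand sum 1.85-fold lower (1.68 to 2.04). Most light-strand fragments were those of MT-TC, MT-TN and MT-TP, so that sum does not describe every tRNA of the strand. As for the rRNAs, how much of this RNA the oligo-dT beads held cannot be told apart from how much the cells contained. The counts are therefore not levels of mature tRNA.

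The tRNA genes with the most fragments lie in the light-strand cluster between MT-ND2 and MT-CO1 and at the far end of the chromosome. Not every gene of that cluster was counted often. MT-TC, the cysteine tRNA, had 130 CPM in oxamate, 121 CPM in hypoxia and 98.4 CPM in normoxia. MT-TN, for asparagine, had 76.2 CPM in oxamate, 70.4 CPM in hypoxia and 41.8 CPM in normoxia, 1.69-fold higher in hypoxia (1.56 to 1.82). MT-TP, for proline, stood apart by differing with oxamate, at 67.7 CPM, while hypoxia had 36.6 CPM and normoxia 35.1 CPM. That is 1.85-fold higher with oxamate than in hypoxia (1.71 to 1.999), under the rule, and oxamate against normoxia passed it under scaling by total fragments (log2 1.04). MT-TY, for tyrosine, was lower in hypoxia, with 9.36 CPM in oxamate, 9.97 CPM in hypoxia and 17.9 CPM in normoxia. It was the exception only among the light-strand tRNA genes with at least 50 fragments. Light-strand tRNA genes with fewer fragments differed in both directions between hypoxia and normoxia.

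All 6 heavy-strand tRNA genes with 50 fragments had lower values in hypoxia than in normoxia. Of these 3 passed the rule, which 8.06% of all genes passed as lower. MT-TV and MT-TI reached 50 fragments in normoxia and not in hypoxia, so their inclusion in this comparison favoured a lower value, and the counts of 6 and 3 carry no weight of their own. MT-TV, the valine tRNA between the rRNAs, had 2.20 CPM in oxamate (55 fragments), 0.831 CPM in hypoxia (23 fragments) and 3.21 CPM in normoxia (83 fragments), and was 3.86-fold lower in hypoxia (2.41 to 6.42). MT-TI, for isoleucine, was counted only 23 times in oxamate, 22 times in hypoxia and 69 times in normoxia, which made it 3.36-fold lower in hypoxia (2.05 to 5.70). MT-TL1, a leucine tRNA just downstream of the rRNAs, had 11.4 CPM in oxamate, 5.999 CPM in hypoxia and 15.0 CPM in normoxia, 2.50-fold lower in hypoxia (2.08 to 3.02). The other 3 stayed inside 2-fold. MT-TG, for glycine, had 8.80 CPM in oxamate, 6.83 CPM in hypoxia and 10.4 CPM in normoxia. MT-TR, for arginine, had 6.60 CPM in oxamate, 5.96 CPM in hypoxia and 6.69 CPM in normoxia, and MT-TH, for histidine, had 3.48 CPM in oxamate, 2.71 CPM in hypoxia and 4.91 CPM in normoxia. With oxamate against hypoxia, MT-TV was 2.65-fold higher (1.60 to 4.51), the one tRNA past the rule in that comparison, where 5.92% of all genes were higher, and it too reached 50 fragments only in the library where it was high. The tables do not say whether reads were counted by strand, so RNA of a light-strand tRNA and heavy-strand RNA over the same bases cannot be told apart. The sequences of the 3 light-strand tRNAs with the most fragments and of MT-TL1, the heavy-strand one with the most, are given 5′ to 3′ from GENCODE 29, all in lower case.
MT-TC: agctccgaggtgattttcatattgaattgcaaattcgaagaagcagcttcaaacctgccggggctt
MT-TN: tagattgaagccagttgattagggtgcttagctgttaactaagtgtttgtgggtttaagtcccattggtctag
MT-TP: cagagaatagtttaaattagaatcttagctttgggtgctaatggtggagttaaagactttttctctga
MT-TL1: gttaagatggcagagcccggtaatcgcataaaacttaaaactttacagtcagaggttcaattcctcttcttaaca
These lie at chrM:5761-5826, chrM:5657-5729 and chrM:15956-16023 on the minus strand and chrM:3230-3304 on the plus strand (hg38).

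**Figure D4:**
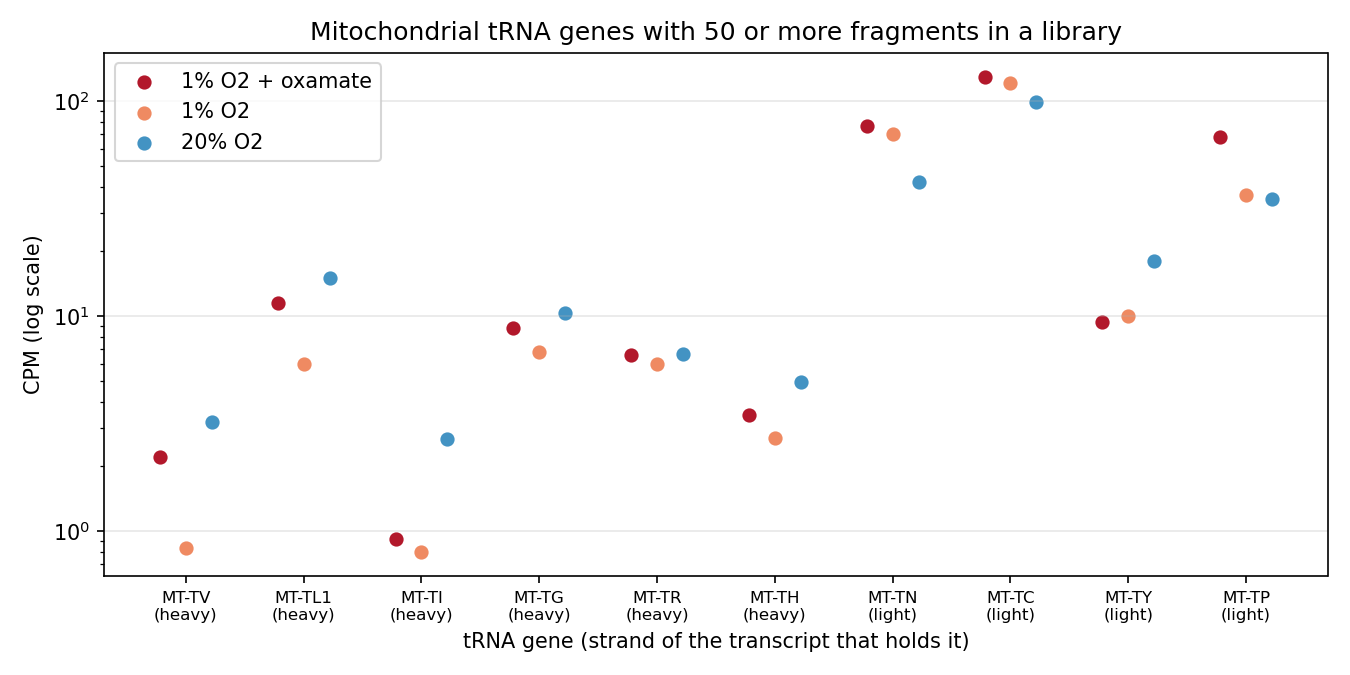
CPM (vertical axis, log scale) of the 10 tRNA genes with at least 50 fragments in some library, heavy-strand genes on the left and light-strand genes on the right, with points for 1% oxygen with oxamate, 1% oxygen and 20% oxygen from left to right. The hypoxia point is below the normoxia point for all 6 heavy-strand genes and above it for MT-TN, MT-TC and MT-TP.

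The strands did not divide the hypoxia ratios cleanly. On the heavy strand the 12 mRNAs and 6 counted tRNAs had hypoxia values below normoxia. Of these tRNAs, MT-TV and MT-TI reached the fragment minimum in normoxia and not in hypoxia, so the count of 6 carries no weight of its own. The sum of all 14 heavy-strand tRNAs, which involves no such selection, was 1.85-fold lower in hypoxia. Both heavy-strand rRNAs had values above normoxia, at log2 0.26 for MT-RNR1 and 0.29 for MT-RNR2. On the light strand MT-ND6, MT-TN, MT-TC and MT-TP, 4 of 5 counted genes, had values above. The interval of the MT-TP ratio, 0.954 to 1.14, included no difference. So did that of MT-TR on the heavy strand, 0.716 to 1.11. Among all 13554 genes with enough fragments, 7683 had values below normoxia and 5871 above. As for the tRNAs, fragments counted to MT-ND6 cannot be told apart from heavy-strand RNA over the same bases. Under scaling by total fragments, which raised every hypoxia log2 ratio by 0.16, MT-ND5 joined those above.

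With oxamate, values of both rRNAs and 12 of 13 mRNAs were above those in hypoxia, none of them past the rule. Among all genes with enough fragments, 6713 of 13739 had values above. The mitochondrial genes share precursors and the same libraries, so their count is not repeated evidence. Among the 13 mRNA genes 0 passed as higher and 0 as lower, with 5.92% of 13739 genes higher and 5.07% lower. The median log2 ratio was 0.40, against -0.01 over all genes, and the 1 value below 0 was MT-ND6 at -0.03. At a ratio of 1.5, MT-ND3 and MT-CO2 passed. By complex, the median log2 ratios were 0.47 for the 7 genes of complex I, 0.46 for MT-CYB, 0.39 for the 3 genes of complex IV and 0.24 for the 2 genes of complex V.

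Against normoxia, the oxamate library kept 2 of 13 mRNA genes past the rule and lower, 0 higher, where 15.3% of 13597 genes were lower and 15.4% higher. These were MT-ND2, at 2.15-fold lower (2.13 to 2.17), and MT-CO3, at 2.03-fold lower (2.02 to 2.05), which fell inside 2-fold under scaling by total fragments (log2 -0.93). The median was -0.53. MT-RNR1 and MT-RNR2 were 1.49-fold (1.47 to 1.504) and 1.496-fold (1.49 to 1.503) higher than in normoxia. The 3 comparisons share libraries and are not independent.

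Nearly identical copies of mitochondrial genes lie in the nuclear genome, and a few took many fragments. Of 415 nuclear genes and pseudogenes named after the 13 mRNA genes and MT-RNR2, 4 held at least 1000 fragments, all in one stretch of chromosome 1 from MTND1P23 (chr1:629062-629433) to MTATP6P1 (chr1:633696-634376), and the other 411 held at most 51 fragments each in any library. Of the 4, MTND2P28 passed the rule, 2.30-fold lower in hypoxia than in normoxia (2.20 to 2.41), as did MT-ND2 itself. MTATP6P1 differs from MT-ATP6 at 10 of 681 aligned bases, and its longest run without a difference is 141 bases. It had 1478 CPM in oxamate, 1102 CPM in hypoxia and 2003 CPM in normoxia, which is 1.82-fold lower in hypoxia (1.79 to 1.84). Copies held 29.03% of the combined MT-ATP6 and copy fragments in oxamate, 28.1% in hypoxia and 24.0% in normoxia. MTCO1P12 is 98.6% identical to MT-CO1 over 1543 aligned positions and had 793 CPM in oxamate, 610 CPM in hypoxia and 1032 CPM in normoxia, with copies holding 5.96% of the combined fragments in oxamate, 5.99% in hypoxia and 6.45% in normoxia. Whether these fragments came from the nuclear copies or from mitochondrial RNA was not tested. With the fragments of all copies added, the same number of mRNA genes, 6, was past the rule in hypoxia.

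The nuclear genes that maintain, transcribe and process this chromosome had a median nearer to 0 in hypoxia. Of 38 listed genes 37 had enough fragments, and 7 passed as lower and 0 as higher than in normoxia, where 8.06% of all genes were lower and 10.8% higher. Their median log2 ratio was -0.59, against -0.11 over all genes. Among the 5 transcription genes, TFB2M, a factor that helps the polymerase open promoters, was 2.26-fold lower (2.05 to 2.49), while TFAM, which packages the DNA and activates its promoters, was 1.31-fold lower (1.25 to 1.39). Of 10 genes for mRNA stability and polyadenylation 2 were lower, FASTKD3 at 2.20-fold and SLIRP, a partner of the mRNA-stabilising protein LRPPRC, at 2.10-fold (1.88 to 2.35); FASTKD1 stood at 1.21-fold higher. PNPT1, a mitochondrial RNA-degrading nuclease, was the one of 3 decay genes past the rule, at 2.02-fold lower (1.88 to 2.16), and REXO2 had the highest ratio of them at 1.26-fold lower. Of 7 counted rRNA modification genes 2 were lower, with MRM1 at 2.34-fold lower and NSUN4 at 1.13-fold lower at the ends. Of 8 maintenance genes, the helicase TWNK was 2.10-fold lower and the polymerase POLG 1.20-fold higher. None of the 4 precursor processing genes passed, from 1.86-fold lower for ELAC2 to 1.23-fold higher for PRORP.

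With oxamate against hypoxia, 0 of those 37 genes passed in either direction and the median was -0.21, from HSD17B10, a subunit of the enzyme that cuts tRNA 5′ ends, at 1.97-fold lower (1.75 to 2.23) to REXO2 at 1.20-fold higher (1.06 to 1.37). For the 75 counted nuclear subunits of complexes I, III, IV and V the median was -0.57 for hypoxia against normoxia, with 4 lower and 1 higher (NDUFV2, on 92 fragments in hypoxia and 20 in normoxia). Both counts are smaller shares than the 8.06% lower and 10.8% higher among all genes. Yet 71 of the 75 had values below normoxia, against 7683 of 13554 among all genes, whose median was -0.11. With oxamate against hypoxia the subunit median was -0.12, against -0.01 over all genes. There 1 was lower and 0 higher, again smaller shares than the 5.07% and 5.92% of all genes. The mitochondrial mRNAs of the same complexes had medians of -0.997 for hypoxia against normoxia and 0.40 for oxamate against hypoxia. ATP5MC1, a ring subunit of ATP synthase, was the lowest nuclear member in both, at 3.32-fold lower in hypoxia than in normoxia (2.98 to 3.70) and 2.04-fold lower with oxamate than in hypoxia (1.73 to 2.42).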

How the data were processed

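The authors deposited 1 value per gene and library with gene coordinates and summed exon length, read here as FPKM. Tools listed by the submitters' processing notes, without their roles, are featureCounts 1.5.0-p3, HISAT2 2.0.5, edgeR 3.22.5 and StringTie 1.3.3b, with the build hg38. How strand, overlapping genes and reads with several matches were handled is not given in the sources used here. FPKM times length was a whole multiple of 1 constant per library for 100% of values (tolerance 0.01), and these multiples were used as fragments. The deposited FPKM imply scaling factors of 1.02, 1.06 and 0.938 for oxamate, hypoxia and normoxia. The trimmed mean of M values over 21987 genes with at least 10 fragments (30% of log ratios and 5% of levels trimmed) gave 1.01, 1.05 and 0.944. Medians over gene lists add 0.5 fragments to each count. Gene types and sequences came from GENCODE 29, which matched 58356 gene identifiers. Nuclear copies were aligned with biopython 1.88. Python 3.11.15, numpy 2.4.6, pandas 2.3.3 and scipy 1.17.1 were used, and the ratio procedure was tested on simulated data. Other scalings, thresholds, gene subsets and denominators were tried. The mitochondrial genes and the nuclear lists were chosen with earlier results of these data known. Named are all 13 mRNA and 2 rRNA genes, tRNA genes with at least 50 fragments in a library, copies with at least 1000, and the highest and lowest member of each nuclear machinery list. MT-TD, MT-TS2, TF, SLIRP, NDUFV2 and ATP5MC1 were named in addition after their values were seen.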

Additional observations from a re-analysis of the deposited data

How the results depend on the processing

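Scaling over nuclear genes, a minimum of 10 fragments, a whole interval past 2-fold and the addition of nuclear copies left the 3 counts of mRNA genes past the rule as they were: 6 in hypoxia against normoxia, 0 in oxamate against hypoxia and 2 in oxamate against normoxia. Scaling by total fragments, which moved the median of all genes by 0.16 on the log2 scale in hypoxia against normoxia, gave mRNA medians of -0.84, 0.34 and -0.44 in that order and left 1 gene in the last comparison. Median-of-ratios factors gave medians of -1.01 and -0.55 for hypoxia and oxamate against normoxia, and the deposited FPKM gave -1.01, 0.395 and -0.55; both scalings put 7 genes past the rule in hypoxia against normoxia, adding MT-ND4. Taken as shares of mitochondrial mRNA, the medians were -0.036, -0.0030 and 0.025, with 1 gene past the rule in hypoxia against normoxia (MT-ND6, higher) and 0 in oxamate against normoxia, since these ratios are relative to the mRNA sum itself. A 1.5-fold threshold gave 11, 2 and 6 genes. Without the 5 genes that overlap another, the medians were -1.08, 0.46 and -0.39. Of the 8 genes left, 4 were past the rule in hypoxia against normoxia, 0 in oxamate against hypoxia and 1 in oxamate against normoxia. The chrM share was 7.39% in oxamate, 5.93% in hypoxia and 8.61% in normoxia with protein-coding and chrM genes as denominator, 5.29% in oxamate, 4.17% in hypoxia and 7.26% in normoxia without rRNA genes, and 7.47% in oxamate, 6.002% in hypoxia and 8.78% in normoxia with nuclear copies added. No paired analysis was possible because each condition has 1 library. Depth limits the 12 tRNA genes under 50 fragments, and MT-TV and MT-TI, with 23 and 22 fragments in hypoxia.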
